A study of Mus musculus with 2 samples.

Results

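Sertoli cells, the somatic cells that enclose the germ cells in the testis tubule, take and hold their identity through a small set of transcription factors. The 8 genes described here, Sox9, Sox8, Wt1, Gata4, Gata1, Nr5a1, Dmrt1 and Foxq1, were taken by their symbols from the 32285 genes counted. These genes were chosen with earlier results of these data known. They were followed in whole-testis single-cell RNA libraries, 1 per genotype, of mice of the C57BL/6 strain aged 13 days. The knockout library carried the genotype Psma7 F/-;Stra8-Cre KI/+, that is a floxed and a deleted copy of Psma7, a gene for a subunit of the constitutive proteasome, with a Cre driven from Stra8, a gene of germ cells. The control library carried Psma7 F/+, a floxed and a wild-type copy, and its label gives no Cre. The deleted copy is present in every cell of the knockout animal, Sertoli cells included. The number of animals behind each library is not given in the sources used here.

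SOX9 acts downstream of the Y-linked switch SRY and directs the supporting cells of the gonad to the Sertoli fate, and SOX8, its close relative, acts with it to keep that fate. WT1, GATA4 and NR5A1 (steroidogenic factor 1) act earlier, in the forming gonad, and stay in use in Sertoli cells, where together with SOX9 they drive the gene for anti-Müllerian hormone, Amh. DMRT1 guards the male state of Sertoli cells after birth and has a separate role in spermatogonia, GATA1 is best known as the factor of red blood cell precursors and is also made by mouse Sertoli cells, and FOXQ1 is a forkhead protein. Sertoli cells lower Amh as they mature, which is why the cells were also divided by whether an Amh transcript was read.

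The set holds 2 pairs of relatives, and the coding stretches in which each pair is most alike are shown because a read that fits both copies cannot be assigned to either. Each stretch is 120 bases of the coding sequence, from GENCODE M21 transcripts (mm10), read 5′ to 3′ on the coding strand, and capitals mark the bases at which the pair differs.
Sox9: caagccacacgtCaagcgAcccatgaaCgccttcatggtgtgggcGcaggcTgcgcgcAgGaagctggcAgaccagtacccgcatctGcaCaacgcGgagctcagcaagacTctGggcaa
Sox8: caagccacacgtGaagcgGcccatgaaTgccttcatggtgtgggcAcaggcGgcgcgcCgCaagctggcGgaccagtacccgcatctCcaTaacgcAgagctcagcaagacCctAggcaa
Gata4: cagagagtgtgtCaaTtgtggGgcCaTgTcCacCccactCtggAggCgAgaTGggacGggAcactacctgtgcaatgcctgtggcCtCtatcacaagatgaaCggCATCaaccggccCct
Gata1: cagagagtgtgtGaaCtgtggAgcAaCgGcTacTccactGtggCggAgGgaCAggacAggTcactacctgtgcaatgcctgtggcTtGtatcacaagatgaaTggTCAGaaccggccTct
The Sox9 and Sox8 stretches, from coding bases 303 and 285, lie in the HMG box, the DNA-binding domain, and are 89.2% identical, with 13 differing bases. The Gata4 and Gata1 stretches, from coding bases 642 and 603, hold the N-terminal zinc finger and bases on either side of it. They are 80.0% identical, with 24 differing bases. The libraries read transcripts from their 3′ ends, and neither the place of the reads within the genes nor the similarity of the 3′ ends was analysed here. In mm10, Sox9 lies on chromosome 11 at 112782224 to 112787760 on the plus strand, Sox8 on chromosome 17 at 25565892 to 25570686 on the minus strand, and Wt1 on chromosome 2 at 105126529 to 105173616 on the plus strand. Gata4 lies on chromosome 14 at 63198922 to 63271692 and Gata1 on chromosome X at 7959260 to 7978071, both on the minus strand. Nr5a1 lies on chromosome 2 at 38692656 to 38714542 on the minus strand, Dmrt1 on chromosome 19 at 25505618 to 25604329 on the plus strand, and Foxq1, a gene of 1 exon, on chromosome 13 at 31556134 to 31560976 on the plus strand. Sox8, Nr5a1 and Foxq1 overlap a counted gene on the other strand (2810468N07Rik, Nr5a1os and A530084C06Rik). Sertoli cells held 219 unique molecular identifiers (UMIs, 1 per captured transcript) in the knockout and 95 in the control library for 2810468N07Rik, the highest of the 3, while Nr5a1, the member with the fewest of those it concerns, had 2259 and 1622.

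Cells numbered 10598 in the knockout library (112746953 UMIs in all, median 5393.5 per cell) and 10742 in the control library (146528736, median 8042.5). The libraries shared 29 cell barcodes. Levels are given in CPM, the gene's UMIs over all UMIs of the cells named on the usual CPM scale, with 95% intervals that reflect counting error alone. Ratios are on the log2 scale, knockout over control unless another pair is named, and a gene is past the threshold at 1.5-fold with at least 30 UMIs in the sets compared together, which is also what measured means here. Neither genotype has a replicate library, so no difference between them could be tested. Psma7, the gene named in the labels, was at 93.7 CPM in undifferentiated spermatogonia of the knockout and 245 in those of the control library. In Sertoli cells it was at 89.3 in the knockout and 243 in the control library. Psma7 was thus lower in the knockout library in both cell types, and these values do not show a loss particular to germ cells. Which part of Psma7 is floxed is not given, and the tag counted may lie outside it. Sertoli cells were gated by 3 abundant transcripts, Aard, Cst9 and Cst12, at 10 or more UMIs of the 3 per 10000 UMIs of the cell and at least 3 in all. The gate took 6515 knockout cells (61.5%) and 3714 control cells (34.6%). Among Sertoli markers not used in the gate, Rhox8 was at 607 and 430 CPM in knockout and control Sertoli cells. Fshr, the receptor for follicle-stimulating hormone, was at 303 and 297. The log2 ratio of Fshr in Sertoli over all other cells was 4.41 in the knockout and 5.38 in the control library. Gated cells had a median of 4108 UMIs in the knockout and 5159 in the control library. The 8 germ cell markers summed to 33.4 CPM in knockout and 213 in control Sertoli cells, and Dazl among them was at 5.82 and 76.5.

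Across the cell types of the testis the set fell into genes read almost wholly in Sertoli cells and genes shared with the interstitium or the germ line. Sertoli cells held 90.6% of all Sox9 UMIs in the knockout and 91.4% in the control library. The shares were 93.0% and 90.8% for Sox8, 96.1% and 93.7% for Foxq1, 91.3% and 89.0% for Gata1, and 87.9% and 86.7% for Wt1. Nr5a1 and Gata4 had lower shares, 58.2% and 60.3% for Nr5a1 and 65.2% and 61.7% for Gata4. Dmrt1 was the member whose share differed most between the libraries, with 80.5% in the knockout and 31.1% in the control library, beside a control library that held 1683 differentiating spermatogonia and 1321 meiotic germ cells where the knockout held 49 and 1.

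**Figure D1:**
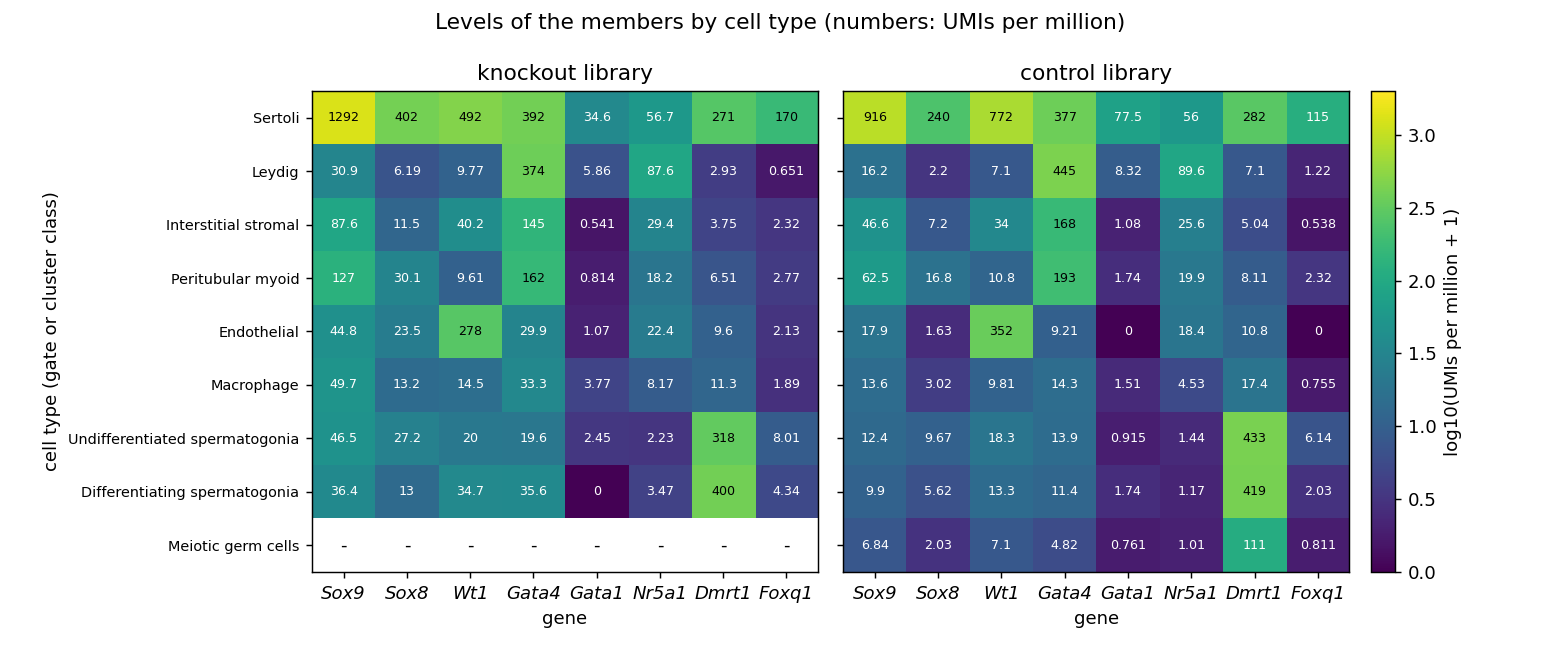
Levels of the 8 genes in CPM, printed and coloured on a log10(level + 1) scale, by cell type (rows) and gene (columns), with the knockout library left and the control library right; a dash marks the class with 1 knockout cell. Dmrt1 is high in Sertoli cells and spermatogonia, Gata4 and Nr5a1 in Sertoli and Leydig cells, and Wt1 in Sertoli and endothelial cells.

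Sox9 was at 1292 CPM in Sertoli cells of the knockout and 916 in those of the control library. Peritubular myoid cells, the contractile cells around the tubule, came next with 127 and 62.5, and interstitial stromal cells followed with 87.6 and 46.6. From the fourth place down, neighbours in the order had overlapping intervals, except that in the control library differentiating spermatogonia (9.90) were above meiotic germ cells (6.84). Sox8 had the same leading pair, with 402 and 240 in Sertoli and 30.1 and 16.8 in myoid cells, and in the knockout library the intervals of myoid cells and the next class overlapped. Foxq1 was at 170 and 115 in Sertoli cells and at no more than 8.01 in the knockout and 6.14 in the control library in any other class of at least 49 cells. To set these low levels against RNA free in the suspension, the profile of barcodes with 10 to 100 UMIs was scaled to each class by 6 Sertoli transcripts. In myoid cells Sox9 was 6.00 times the UMIs so expected in the knockout and 4.18 times in the control library, and Foxq1 1.15 and 1.37 times.

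Wt1 was read outside the Sertoli gate in endothelial cells, at 278 CPM in 64 knockout cells and 352 in 87 control cells. These UMIs were 33.9 and 61.1 times what free RNA would give. Rete or mesothelial cells, a small class of 14 knockout and 16 control cells, had 636 and 704, which was above knockout Sertoli cells (492) and overlapped the interval of control Sertoli cells (772). Gata1, by contrast, was at 34.6 and 77.5 in Sertoli cells and at most 5.86 and 8.32 in the other classes, the highest of them Leydig cells.

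Gata4 and Nr5a1, which share the steroid-making Leydig cells as a site of action, were both high there. In 251 knockout and 237 control Leydig cells Gata4 was at 374 and 445 CPM, against 392 and 377 in Sertoli cells. Leydig and Sertoli cells thus had overlapping intervals for Gata4 in the knockout library, and Leydig cells were the higher in the control library. Nr5a1 was at 87.6 and 89.6 in Leydig cells, above the 56.7 and 56.0 of Sertoli cells in both libraries. Gata4 was also at 162 and 193 in myoid and 145 and 168 in interstitial stromal cells, in myoid cells 17.7 and 23.7 times and in stromal cells 9.46 and 12.1 times the free RNA expected. One of the 6 transcripts used to scale free RNA, Defb19, was at 632 and 552 CPM in Leydig cells, so that scale reads too high for them. Without Defb19, a choice made after seeing the data, Gata4 in Leydig cells was 92.6 and 98.6 times the free RNA expected, and in interstitial stromal cells 19.8 and 32.9 times.

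Dmrt1 was as much a germ cell as a Sertoli cell transcript at this age. It was at 318 CPM in 291 knockout undifferentiated spermatogonia and 433 in 510 control ones, 60.8 and 70.4 times the free RNA expected. The log2 ratio of -0.44 between genotypes, with an interval from -0.54 to -0.36, did not pass 1.5-fold. Differentiating spermatogonia had 400 in 49 knockout and 419 in 1683 control cells, with overlapping intervals (364 to 438 in the knockout, 412 to 427 in the control library). Meiotic germ cells of the control library had 111. Over all cells of a library Dmrt1 was at 147 in the knockout and 227 in the control library, a log2 ratio of -0.62, while in Sertoli cells alone it was at 271 and 282, a log2 ratio of -0.05.

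Outside Sertoli cells the members that passed 1.5-fold between genotypes were mostly the SOX genes at low levels. In myoid cells Sox9 had a log2 ratio of 1.02 (0.83 to 1.21) and Sox8 of 0.84, beside 12.5% of all genes past 1.5-fold. In interstitial stromal cells, where 8.33% were past it, Sox9 was at 0.91, Sox8 at 0.67 and Foxq1 at 2.03, from 60 knockout and 8 control UMIs, and Gata1 at -0.99, from 14 and 16 UMIs and with an interval that included 0. In Leydig cells (9.9%) Sox9 was at 0.93, Sox8 at 1.43 and Dmrt1 at -1.26. Undifferentiated spermatogonia (22.8%) had Sox9 at 1.90 and Sox8 at 1.49, endothelial cells (14.7%) had Sox9 at 1.32 and Gata4 at 1.68, and macrophages (15.8%) had Sox9 at 1.84, Gata4 at 1.19 and Dmrt1 at -0.61, the last with an interval that included 0. Sox9 was higher in the knockout library in each of these 6 classes. Amh, a Sertoli transcript, was also higher where it was measured: 2.21 in myoid, 2.05 in interstitial stromal cells and 3.02 in undifferentiated spermatogonia. Amh was higher in knockout Sertoli cells themselves too, at 2.19, and Sox9 in myoid cells was above the free RNA expected, as given above. Sertoli cells were a larger share of the knockout suspension. Other settings kept doublets, centred ratios on the median gene or subtracted 10% of the UMIs as free RNA. Over them Sox9 ranged from 0.53 to 0.93 in interstitial stromal and from 0.87 to 1.11 in myoid cells. After the subtraction Sox9 was no longer measured in Leydig, endothelial, macrophage and undifferentiated spermatogonia classes. The 10% was the same for every class and not fitted to it, so this loss does not show where those UMIs came from. Scaled by the 6 Sertoli transcripts, free RNA was 3.19% of UMIs in knockout and 2.96% in control differentiating spermatogonia. In undifferentiated spermatogonia Sox9 otherwise ranged from 1.13 to 1.85, and Sox8 from 1.09 to 2.23. The part of free RNA in these ratios was not tested. Gata4 in the cells that hold it, at -0.25 in Leydig, -0.25 in myoid and -0.21 in interstitial stromal cells, was lower in the knockout library by under 1.5-fold, with intervals below 0.

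The comparison of genotypes within Sertoli cells asked whether the identity factors differ in cells that the Cre is not meant to reach. Of the 8 members 3 were past 1.5-fold, Sox8 higher and Wt1 and Gata1 lower in the knockout library, where 26.9% of the 17175 genes measured were past it, 17.9% higher and 9.04% lower. The median of the 8 was 0.04 on the log2 scale, beside 0.03 for all genes, so the set as a whole did not lie to 1 side.

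**Figure D2:**
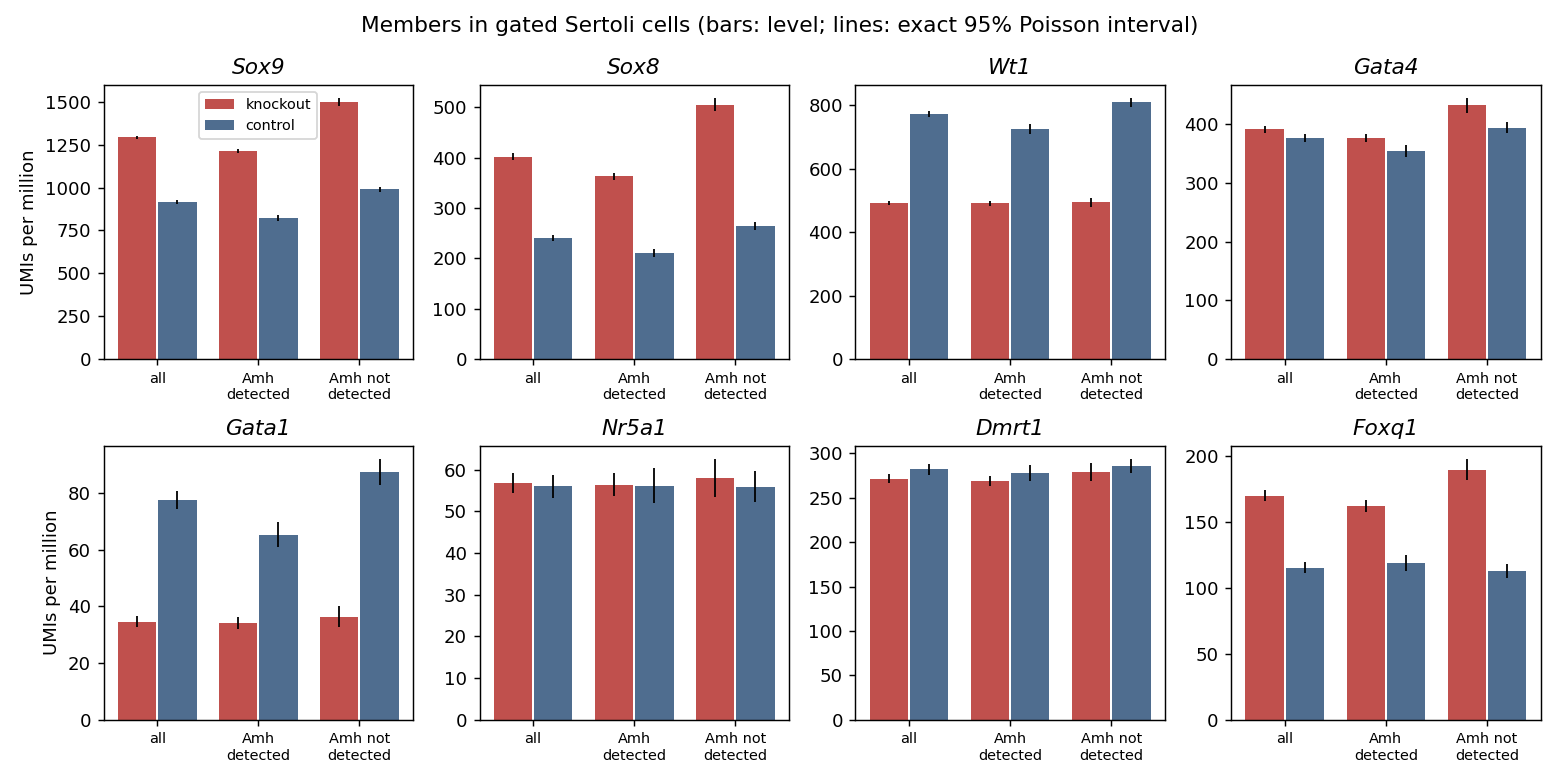
Level of each gene (CPM, linear axis from 0) in all gated Sertoli cells and in those with and without an Amh UMI, knockout bars left and control bars right; lines are exact 95% Poisson intervals. Sox9, Sox8 and Foxq1 are higher and Wt1 and Gata1 lower in the knockout library in each set of cells, and Gata4, Nr5a1 and Dmrt1 lie close together.

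The SOX pair was higher in the knockout library. Sox8 was at 402 CPM (396 to 408) in knockout and 240 (235 to 246) in control Sertoli cells, a log2 ratio of 0.74 (0.70 to 0.78). Sox9 was at 1292 and 916, a log2 ratio of 0.50 (0.48 to 0.52), which is under 1.5-fold. Foxq1 followed at 170 and 115, a log2 ratio of 0.56 (0.50 to 0.62), also under it. With each cell thinned to 2000 UMIs, Sox8 was detected in 56.7% of knockout and 39.5% of control Sertoli cells. Sox9 was detected in 86.4% and 76.0%, and Foxq1 in 25.5% and 19.0%. With all UMIs the shares were 77.6% and 67.4% for Sox8, 93.8% and 91.4% for Sox9 and 41.9% and 39.1% for Foxq1. Macrophages, which should lack these factors and were deeper (median 10996 UMIs in the knockout and 10245 in the control library), had a UMI of Sox8 in 9.40% and 3.42% of cells, of Sox9 in 23.1% and 9.40% and of Foxq1 in 2.56% and 0.855%.

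Of the zinc finger factors WT1, GATA1 and GATA4, the first pair was lower in the knockout library. Gata1 was at 34.6 CPM (32.8 to 36.5) in knockout and 77.5 (74.3 to 80.8) in control Sertoli cells, a log2 ratio of -1.16 (-1.26 to -1.06). Wt1 was at 492 and 772, a log2 ratio of -0.65 (-0.68 to -0.62). At 2000 UMIs Wt1 was detected in 59.9% of knockout and 75.8% of control cells, and Gata1 in 6.20% and 14.2%. With all UMIs the shares were 79.4% and 90.3% for Wt1, against 12.8% and 8.55% in macrophages. Gata1 had a UMI in 977 of 6515 knockout and 1292 of 3714 control Sertoli cells, and in 3.42% and 1.71% of macrophages. Gata4 was at 392 and 377, with a log2 ratio of 0.06 (0.02 to 0.09). The 8 interstitial stromal markers summed to 572 and 254 in the gated cells, and their part in the Gata4 level was not tested. Because GATA1 is an erythroid factor, erythroid transcripts were read in the same cells: Hbb-bs was at 37.1 in knockout and 1.93 in control Sertoli cells, and Alas2 at 1.15 and 1.41. The whole erythroid list summed to 55.5 in knockout and 4.49 in control Sertoli cells. Haemoglobin RNA was thus higher in the library with less Gata1, and without the cluster led by haemoglobin genes the Gata1 log2 ratio was -1.20.

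Nr5a1 and Dmrt1 differed little. Nr5a1 was at 56.7 CPM in knockout and 56.0 in control Sertoli cells, and the interval of its log2 ratio, -0.07 to 0.11, included 0. Dmrt1, at 271 and 282, had a log2 ratio of -0.05 (-0.10 to -0.01). Germ cell markers were higher in the control gate as given above, and their part in the Dmrt1 level was not tested. With 10% of the UMIs subtracted as free RNA the log2 ratio of Dmrt1 was -0.03.

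Sertoli cells of the libraries did not fall into the same clusters. Cells were clustered together with the 8 members left out of the genes used. Clusters 0, 3 and 6, which held most knockout Sertoli cells, had 69.4% of them and 8.83% of the control ones, and clusters 5, 8 and 10, which held most control Sertoli cells, had 4.10% of the knockout and 71.3% of the control ones. Cluster 8 held too few knockout cells to be compared. Within the 8 Sertoli clusters that held at least 50 gated cells of each library, Gata1 was lower in the knockout cells in 8 of 8, with a median log2 ratio of -0.79 and a range from -2.71 to -0.21. Its interval lay below 0 in 6 of them. Wt1 was lower in 8 of 8, with a median of -0.38 and a range from -0.72 to -0.21, and an interval below 0 in 7. Of 3676 genes measured in all 8 clusters, 6.96% were lower in every one and 4.27% higher in every one.

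**Figure D3:**
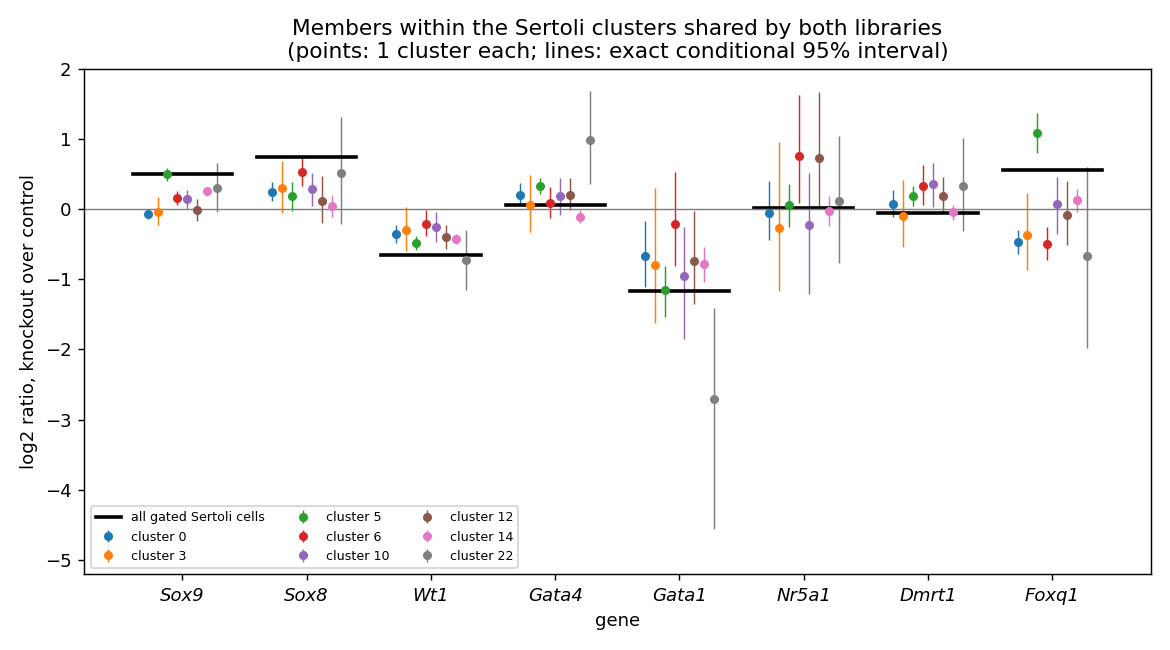
Log2 ratio of knockout over control for each gene within each of the 8 Sertoli clusters that both libraries share (coloured points, with exact conditional 95% intervals) and over all gated Sertoli cells (black bars). Gata1 and Wt1 lie below 0 in every cluster, the Sox8 points lie above 0 and under the black bar, and the Foxq1 points spread on both sides of 0.

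The higher members kept less of their difference inside clusters. Most of these clusters set many cells of 1 library against few of the other, and the effect of this on the ratios was not tested. Sox8 was higher in the knockout cells in 8 of 8 clusters, with a median log2 ratio of 0.27, a range from 0.04 to 0.53 and an interval above 0 in 3, against 0.74 over all gated cells. Sox9 was higher in 5 and lower in 3, with a median of 0.15 and an interval above 0 in 4 and below 0 in none, against 0.50. Foxq1 was higher in 3 and lower in 5, with a median of -0.23 and an interval above 0 in 1 and below 0 in 2, against 0.56 over all gated cells. Its log2 ratios ran from -0.67, in a cluster with 11 knockout and 13 control UMIs, too few to count as measured, to 1.09, in cluster 5 with 171 knockout and 862 control cells. In cluster 0, with 2375 knockout and 171 control cells, Foxq1 was at 233 CPM in knockout and 323 in control cells, with a log2 ratio of -0.48 (-0.64 to -0.30). Gata4 was higher in 7 of the 8 clusters (median 0.20), Dmrt1 in 6 (median 0.19) and Nr5a1 in 4 (median 0.01). Of the 2 most evenly filled clusters, cluster 14 (329 knockout and 283 control cells) had log2 ratios of -0.79 for Gata1, -0.43 for Wt1, 0.04 for Sox8, 0.25 for Sox9 and 0.12 for Foxq1. Cluster 22 (161 and 138 cells, with few UMIs) had -2.71 for Gata1, from 5 and 26 UMIs, -0.72 for Wt1, 0.51 for Sox8, 0.30 for Sox9 and 0.98 for Gata4.

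Depth of the cell moved with Sox9, Sox8 and Foxq1 in both libraries. In knockout Sertoli cells of 1000 to under 3000, 3000 to under 6000 and at least 6000 UMIs, Sox8 was at 669, 572 and 265 CPM, and in control cells at 452, 348 and 191. Sox9 was at 1710, 1645 and 1031 in knockout and at 1425, 1252 and 772 in control cells. Foxq1 was at 209, 221 and 136 in knockout and at 155, 149 and 102 in control cells. All 3 were thus lowest in the deepest cells of each library. Gata1 was at 35.4, 35.7 and 34.0 in knockout cells, with overlapping intervals, and at 80.0, 89.1 and 73.6 in control cells, the last below the middle one with separate intervals. Wt1 was not lowest in the deepest cells, at 466, 488 and 499 in knockout and at 652, 820 and 765 in control cells. Between cells of like depth the log2 ratios of knockout over control were 0.57, 0.72 and 0.47 for Sox8, 0.26, 0.39 and 0.42 for Sox9, -0.48, -0.75 and -0.62 for Wt1 and -1.18, -1.32 and -1.11 for Gata1. Depth within each class was not matched, and its part in these ratios was not tested.

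**Figure D4:**
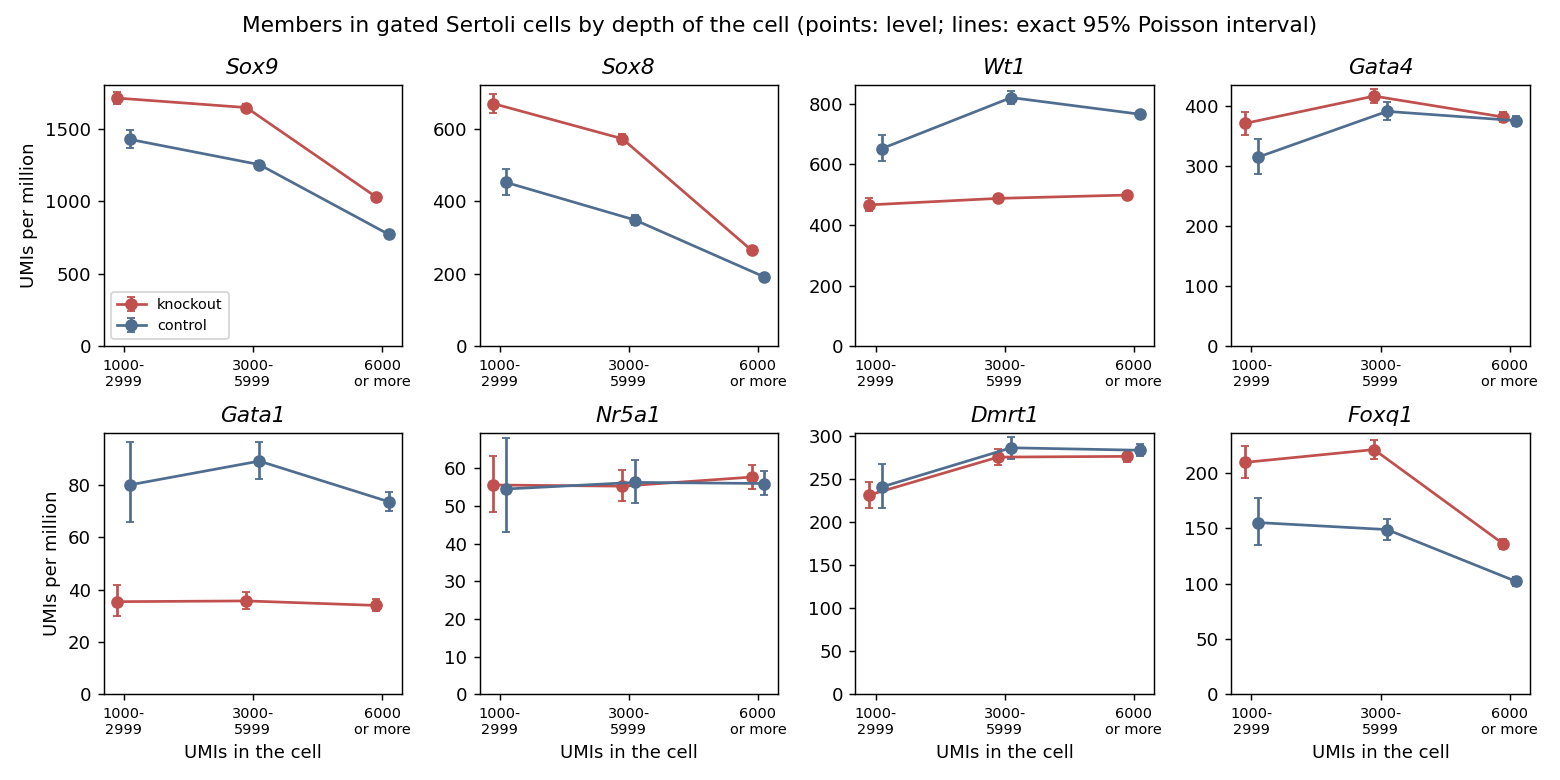
Level of each gene (CPM, linear axis from 0) in gated Sertoli cells of 3 depth classes, with a line for the knockout and a line for the control library and exact 95% Poisson intervals. Sox9, Sox8 and Foxq1 are lowest in cells of 6000 UMIs or more in both libraries, and the distance between the lines of Gata1 and of Wt1 is present at each depth.

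Sertoli cells with an Amh UMI numbered 3819 in the knockout (58.6%) and 1016 in the control library (27.4%). Amh itself was at 284 CPM in knockout and 62.1 in control Sertoli cells, a log2 ratio of 2.19 (2.12 to 2.26). It had a UMI in 5.13% of knockout and 0.855% of control macrophages, and it was higher in the knockout cells in 8 of the 8 shared clusters. The split asked whether the factors known to drive Amh differ between cells in which it was and was not read. None of the 8 members was past 1.5-fold between them in either library, where 13.2% of 15907 genes in the knockout and 11.6% of 14930 genes in the control library were. Sox8 was at 363 CPM in Amh-detected and 505 in Amh-undetected knockout cells, a log2 ratio of -0.48 (-0.52 to -0.43), and at 211 and 263 in control cells, a log2 ratio of -0.32 (-0.39 to -0.25). Sox9 was at 1214 and 1499 in knockout cells and at 823 and 990 in control cells, with log2 ratios of -0.30 and -0.27. Over all cells both SOX genes were thus lower in those with an Amh UMI, which were also the deeper cells, as given below. Gata1 had a log2 ratio of -0.10 in the knockout, with an interval that included 0, and -0.42 (-0.55 to -0.30) in the control library. Gata4 was at -0.20 and -0.16, Wt1 at -0.01 and -0.16, Nr5a1 at -0.04 and 0.00 and Dmrt1 at -0.05 and -0.04. Foxq1 was at -0.22 in the knockout and 0.07 in the control library.

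Detection of Amh depends on depth, and Amh-detected cells were the deeper, with a median of 4786 against 3373 UMIs in the knockout and 8622 against 4568 in the control library. Across cells with 0, 1, 2 to 3 and 4 or more Amh UMIs, Sox8 was at 505, 485, 414 and 254 CPM in the knockout, while the median depth was 3373, 3834, 4896 and 9758 UMIs. When Amh was read after each cell was thinned to 2000 UMIs, the log2 ratio of Sox8 was -0.07 in the knockout and 0.20 in the control library, and that of Sox9 -0.06 and 0.04. In cells of at least 6000 UMIs Sox8 was at -0.14 and 0.01 and Sox9 at -0.02 and -0.01. The part of depth in the SOX values over all cells was not tested further. The sign of Foxq1 in the knockout library varied with the cells taken: it was at -0.09 after thinning and at 0.24, -0.14 and 0.24 in cells of 1000 to under 3000, 3000 to under 6000 and at least 6000 UMIs. In the control library it was at 0.24 after thinning and at 0.27, 0.18 and 0.35 in the same depth classes. Gata1 in the control library was at -0.21 after thinning and -0.44 in cells of at least 6000 UMIs, but 0.59 in cells of 1000 to under 3000 UMIs, from 18 and 95 UMIs.

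**Figure D5:**
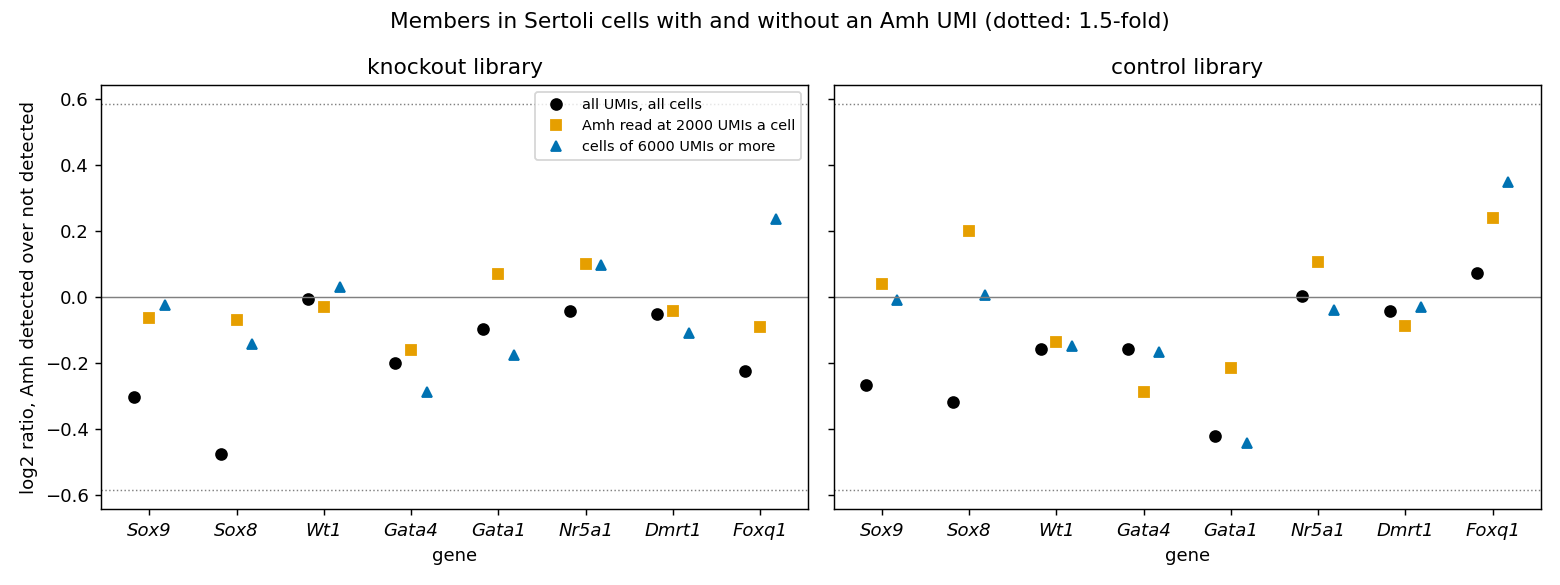
Log2 ratio of Amh-detected over Amh-undetected Sertoli cells for each gene, knockout library left and control library right: all cells with all UMIs (circles), Amh read at 2000 UMIs a cell (squares) and cells of at least 6000 UMIs (triangles). The circles of Sox9 and Sox8 lie below 0 in both libraries, and their squares and triangles lie nearer to 0.

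Between the genotypes, Sox8, Foxq1, Sox9, Wt1 and Gata1 differed in the same direction on both sides of the Amh split. In Amh-undetected cells the log2 ratio of knockout over control was 0.94 for Sox8, 0.75 for Foxq1, 0.60 for Sox9, -0.71 for Wt1 and -1.26 for Gata1, all past 1.5-fold as were 28.7% of 15146 genes. In Amh-detected cells it was 0.78 for Sox8, 0.45 for Foxq1, 0.56 for Sox9, -0.56 for Wt1 and -0.94 for Gata1, of which Sox8 and Gata1 were past 1.5-fold, as were 25.0% of 15891 genes. Gata4 was at 0.13 in Amh-undetected and 0.09 in Amh-detected cells, Nr5a1 at 0.05 and 0.00, and Dmrt1 at -0.04 and -0.05. Depth was not matched here: Amh-detected cells had a median of 4786 UMIs in the knockout and 8622 in the control library. In Amh-detected cells of 1000 to under 3000 UMIs (715 and 69 cells), Sox9 was at 1656 and 1595 CPM and Sox8 at 656 and 546. There the intervals of Sox9, Sox8, Foxq1 and Wt1 overlapped between the libraries, and those of Gata1 were separate. In the deeper classes all of these were separate.

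Dividing Sertoli cells, 537 in the knockout (8.24%) and 285 in the control library (7.67%), had less of the SOX pair. Sox8 was at 232 CPM in dividing and 441 in other knockout Sertoli cells, a log2 ratio of -0.93, and at 162 and 262 in control cells, a log2 ratio of -0.69. Sox9 was at -0.62 in the knockout and -0.58 in the control library. Of the members Sox8 and Sox9 in the knockout and Sox8 in the control library were past 1.5-fold, beside 22.7% and 22.6% of all genes. The dividing cells were the deeper, with a median of 7723 against 3948.5 UMIs in the knockout and 18063 against 4918 in the control library, and the part of depth in this difference was not tested. In dividing cells the log2 ratio of knockout over control was 0.52 for Sox8, -0.61 for Wt1 and -0.85 for Gata1. Nr5a1 in dividing over other cells was at 0.05 and -0.13, with intervals that included 0.

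Most Sertoli cells had several of the factors read. At 2000 UMIs a cell, 5938 knockout Sertoli cells had a mean of 3.37 ± 1.29 of the 8 members detected and 3482 control cells 3.29 ± 1.30 (SD over cells). At least 3 members were detected in 75.4% and 73.9% of them, and no member in 1.28% and 1.78%. The number of factors read per cell was close in the libraries although which factors contributed differed.

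The list of known targets and products of these factors, like the other lists here, was drawn up with earlier results of these data known. Of its 15 genes, all measured, 8 were past 1.5-fold higher and 0 lower in the knockout library, beside 17.9% higher and 9.04% lower over all genes, and the median log2 ratio was 0.67 beside 0.03. Cbln4, a secreted protein gene, led at 2.95, with 143 UMIs in knockout and 13 in control Sertoli cells, and Amh followed. Tesc, first described in the embryonic testis, was lowest at -0.14, and Trf, the gene for transferrin, was at -0.03. Of 21 partners and other regulators of testis determination 17 were measured, 5 higher and 1 lower past 1.5-fold, with a median of 0.13, beside the same shares over all genes. Fgf9, a growth factor that sustains Sox9 in the fetal gonad, was at 1.12 and Lhx9, a gonad-forming factor, at 0.71, while Nr5a2 was at -0.59 and Lhx2 at -0.54. Lhx9 is mostly a transcript of other cells here, at 5.82 CPM in Sertoli and 82.9 in all other cells of the knockout library and at 3.55 and 30.6 in the control library. The interstitial stromal markers in the gate, at 572 and 254 as above, moved the same way, and their part in Lhx9 was not tested. Sry, which is switched on only briefly in the fetus, had 0 UMIs in either library.

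Of 9 genes of the ovarian pathway, which DMRT1 and SOX9 are known to hold down, 7 were measured, 5 higher and 1 lower past 1.5-fold, with a median of 0.73, beside 17.9% higher and 9.04% lower over all genes. Most of the list belongs to other cells of the testis: its median log2 ratio of Sertoli over all other cells was -3.52 in the knockout and -2.63 in the control library. Esr2, at 3.30 and 2.99, and Runx1, at 0.80 and 1.17, were exceptions. The part of stromal RNA in the gate, which was higher in the knockout, was not tested. Bmp2 was at 1.25, with 60 and 18 UMIs, Esr2 at 1.20, with 31.3 CPM in knockout and 13.6 in control Sertoli cells, Fst at -0.67 and Wnt4 at -0.27. Foxl2, the factor that defines granulosa cells, had 6 and 2 UMIs and was not measured. Of 10 maturation genes 9 were measured, 3 higher and 1 lower, with a median of 0.53, beside the same shares over all genes: Krt18, a keratin of immature Sertoli cells, was at 1.55 and Inhba at 1.39, while Rhox5, an androgen-driven homeobox gene, was at -1.31 and Cldn11, a tight junction protein gene, at -0.57. Inhba was at 7.36 CPM in Sertoli and 135 in all other cells of the knockout library, and at 2.80 and 40.9 in the control library, so it too is mostly a transcript of other cells, and the part of stromal RNA in its ratio was not tested.

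The genes most like each member over cell types were found by Pearson correlation of log2(CPM + 1) over 14 points, 7 cell types in each library, among 15128 genes. Points of 1 library share its depth and free RNA, so these are descriptions without a test. Sox9 was closest to Mro (r = 0.958), Dpysl4 (0.954) and Capn6 (0.945), and Sox8 to Dpysl4 (0.966), Simc1 (0.952) and Amh (0.951). Sox9 and Sox8 had an r of 0.935 with each other. Wt1 was closest to Wt1os (0.983), an antisense transcript of the same locus, and then to Egln1 (0.958) and Edn1 (0.941). Gata1 was closest to Pip5k1b (0.979), Amhr2 (0.967) and Slc6a14 (0.958), and Foxq1 to Erbb4 (0.978), Arhgef18 (0.972) and Elovl2 (0.972). Gata4 was closest to Fbxo27 (0.967), Mmd2 (0.947) and Cpe (0.947), and Nr5a1 to Cpq (0.974), Grb14 (0.967) and Ppm1m (0.956). Dmrt1, which is read in germ cells as well, was closest to Slc39a11 (0.986), Trip12 (0.982) and Sbno1 (0.982), and its r with Gata4 was -0.18.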

How the data were processed

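The deposited values were raw UMI counts per gene and barcode, unfiltered, from 10x 3′ V3 libraries. Per the file headers the authors used Cell Ranger 7.1.0, and the submitters' processing notes name the build mm10. Whether counting used strand is not given in the sources used here. Barcodes with at least 1000 UMIs, 500 genes and at most 20% mitochondrial UMIs were cells (10864 knockout, 11232 control). Scrublet at the control's threshold removed 266 and 490 as doublets; its own threshold marked 1 knockout cell. Cells were clustered in scanpy 1.11.5 (2000 variable genes without the members, 30 components, 15 neighbours, Leiden resolution 1, leidenalg 0.10.2; 32 clusters), and other cell types took names from clusters by their markers. The gate's threshold, the doublet threshold and the naming details were set after seeing the data, and 1688 knockout and 1486 control cells lay within a factor of 2 of the gate. Of the gated cells 262 knockout and 171 control cells lay outside Sertoli clusters.

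Counts were summed per library and cell type. Levels have exact 95% Poisson intervals, ratios conditional exact ones (0.5 added to each count) and shares Clopper-Pearson ones (scipy 1.17.1), all for counting error only. Thinning drew 2000 UMIs per cell and left out shallower cells, 577 knockout and 232 control Sertoli cells. The intervals of levels and ratios were tested on simulated Poisson counts, which hold no variation between cells or libraries. That test did not cover the gate, clustering, doublet calls, thinning or free RNA scaling. Of the 32285 gene IDs, 32158 were found in GENCODE M21, which gave coordinates. The members and lists were chosen with earlier results of these data known. Genes named are the 8 members, the 3 closest to each, the 2 highest and 2 lowest of each list, Psma7, Amh and class markers; Foxl2, Sry, Inha, Cyp26b1 and the Leydig value of Defb19 were added after their values were seen.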

Additional observations from a re-analysis of the deposited data

How the results depend on the processing

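The count of 3 members past 1.5-fold between genotypes in Sertoli cells was 1, Gata1, in cluster 14 and 1, Gata1, in cells of 1000 to under 3000 UMIs, both chosen after seeing the data. It was 2 with the stricter gate and in cells of at least 6000 UMIs, 4 with doublets kept, which added Foxq1, and 3 under the other settings tried. Under the 10 settings listed at the outset Sox8 ranged from 0.59 to 0.79, Sox9 from 0.35 to 0.55, Foxq1 from 0.42 to 0.61, Wt1 from -0.69 to -0.58 and Gata1 from -1.26 to -1.03 (log2), and the lowest SOX values came with at most 10% mitochondrial UMIs. The count of 0 for the Amh split was 1, Sox8, in the knockout library with Amh called at 2 UMIs and with the stricter gate, and 1, Gata1, higher in Amh-detected cells, in the control library in cells of 1000 to under 3000 UMIs. The causes were not tested. No paired analysis was possible because each genotype has 1 library. Depth limits Gata1 and Nr5a1 most, with at least 1380 and 1622 UMIs per library in Sertoli cells but few in single clusters. A difference between suspensions, such as dissociation or the loss of germ cells, cannot be told apart from genotype here.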

Other observations

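Gata1 in Leydig cells, at 36 knockout and 34 control UMIs, was 1.12 and 1.02 times the free RNA expected by the 6 Sertoli transcripts and 16.7 and 12.1 times without Defb19. Nr5a1 in endothelial cells, at 22.4 CPM in the knockout and 18.4 in the control library, was 16.1 and 27.3 times the free RNA expected, from 21 and 34 UMIs. Sertoli clusters outside the gate held 278 knockout and 273 control cells, in which the log2 ratio of knockout over control was 1.01 for Sox8, 0.93 for Foxq1, -1.41 for Gata1 and -0.85 for Wt1.

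Among Amh-detected over Amh-undetected cells, Inha, the inhibin alpha gene, was at 1.21 in the knockout and 0.98 in the control library, Rhox5 at 1.24 and 0.78, and Cyp26b1, which breaks down retinoic acid, at -1.35 and -1.16 (log2; at 44.4 CPM in Sertoli and 510 in other cells of the knockout library, so mostly a transcript of other cells), while none of the 8 members passed 1.5-fold there. Psma7 was at 0.59 and 0.56 in the same comparison. Over all genes 13.2% in the knockout and 11.6% in the control library were past 1.5-fold there. The Amh-detected cells were the deeper, as given above, and the part of depth in these ratios was not tested.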
